A study of Xenopus laevis with 8 samples.

Results

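Animal cap explants of the frog Xenopus laevis collected at stage 10.5 were compared with explants collected at stage 9 across all genes. The comparison takes the 4 count libraries that the titles give to these stages, 2 at stage 10.5 and 2 at stage 9, of 8 libraries in the series. The first library of each stage carries the experiment letter A and the second the letter B, and each pair of values below gives A before B. The groups were wild-type, untreated caps collected at stage 10.5 (early gastrula), wild-type, untreated caps collected at stage 9 (late blastula), and caps of stages 11.5 and 12.5. The caps of stages 11.5 and 12.5 entered the same fit, where they shaped the filter on low counts and the estimate of spread. They were compared with each other once, as a later step. All caps were cut at stage 8 and healed for at least 1 hour in 1x Modified Barth's Saline. They were then grown in 0.5x of that medium with 0.1% gentamycin. Stage and time since cutting thus cannot be told apart. The labels do not say how many caps or embryos went into a library, or whether the letters stand for separate clutches, so p-values measure the spread between these libraries.

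An animal cap is the roof of the blastula, a sheet of pluripotent cells that becomes mucociliary epidermis when left to itself. The egg divides at first on messenger RNAs stored in the oocyte, with fast cycles that lack gap phases. Transcription of the embryo's own genome starts in earnest at the midblastula transition, just before the stages compared here, and stored messages are removed over the same period by deadenylation and decay. Xenopus laevis is allotetraploid, so many genes exist as an L and an S copy (homeologs), each counted on its own. The selection for poly-A tails means that a change in tail length and a change in transcript number cannot be told apart.

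Reads assigned to genes totalled 33170889 and 35586229 at stage 10.5, and 43914736 and 45511790 at stage 9. Levels are CPM, counts scaled to 1000000 on library sizes scaled by TMM, and a CPM value is a share of the library, not an amount per cell. In these bulk samples fewer cells of a type and less RNA per cell cannot be told apart. At least 1 count was seen for 34467 and 36804 gene IDs at stage 10.5, against 31147 and 32325 at stage 9. Fold changes are log2 of stage 10.5 over stage 9 within letter pairs, given with a standard error (SE), and calls were made at a Benjamini-Hochberg adjusted p under 0.05. For single genes the SE is approximate, taken as the absolute log2 fold change over the square root of the quasi-likelihood F statistic. Near-identical homeologs, overlapping genes and antisense partners are uncertain, since the libraries carried no strand information.

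Of 28490 genes tested, 16642 (58.4%) were called, 8623 higher (30.3%) and 8019 lower (28.1%) at stage 10.5. These shares are the background against which every group count below should be read. The median log2 fold change of all genes was 0.11, so a group median near that value did not stand apart from the rest. Changes of at least 1 on the log2 scale were called in 6608 genes upward and 5774 downward. Fitted rises were steeper than fitted falls. The called higher genes had a median log2 fold change of 2.44, with a median level of 5.88 CPM at stage 10.5 and 0.858 CPM at stage 9. The called lower genes had a median of -1.48, with 11 CPM at stage 10.5 and 33.1 CPM at stage 9. A rise of at least 3 on the log2 scale was called in 3538 genes and a fall of that size in 758. Among the called genes 1697 that were higher had at most 3 counts in either stage 9 library, whereas 67 that were lower had at most 3 counts in either stage 10.5 library. The fold changes of such genes depend on the prior count. The medians of called genes were not recomputed without them, so how far they make rises look steeper was not tested. Direction was shared by both letters in 16620 called genes (99.9%), including every called gene whose values are given below. Calls came from the same libraries, so such agreement is likely in any called gene and is no separate replication. The steepest rises and falls named below were also required to show it.

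The called higher genes together held 55.0% and 52.0% of the normalised counts at stage 10.5, against 23.8% and 23.5% at stage 9. The called lower genes held 18.7% and 21.0% at stage 10.5, against 49.0% and 49.7% at stage 9.
The split differed between levels, with no steady trend. Among 577 genes with a mean over both stages under 0.1 CPM, 30.7% were called higher and 0.173% lower. Among 7487 genes with a mean over both stages of 0.1 to 1 CPM, 35.8% were called higher and 3.22% lower. Among 7726 genes of 1 to 10 CPM, 31.3% were called higher and 26.5% lower. Among 10515 genes of 10 to 100 CPM, 23.7% were called higher and 48.0% lower, and among 2185 genes over 100 CPM, 39.1% were called higher and 31.5% lower. The filter on low counts took in the later stages too, so a gene near 0 counts at stage 9 could pass through them. By the 4 libraries of both stages alone, 26350 genes passed it. Genes under 0.1 CPM needed counts at the later stages to pass. The splits at the lowest levels therefore follow in part from the filter and are not read as a result.

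The labelled tissue, epidermis of the animal cap, was checked against 29 tested IDs of ectoderm markers, of which 25 rose and 2 fell. Their summed level was 6692 and 4972 CPM at stage 10.5, against 1513 and 1451 CPM at stage 9. Several of these markers were nearly absent from the stage 9 caps, where dlx3.L had 2 counts in each library and gata3.L had 10.9 and 10.8 CPM at stage 10.5, against 0.0836 and 0.161 CPM at stage 9. The 22 tested vegetal and endoderm markers, with 5 called higher and 1 lower, summed to 110.0 and 235 CPM at stage 10.5, against 159 and 187 CPM at stage 9. The 22 mesoderm and organizer markers, with 6 higher and 3 lower, summed to 103.1 and 177 CPM at stage 10.5, against 105 and 161 CPM at stage 9. For both of these lists the B library was above the A library at each stage. The 9 germ plasm markers summed to 216 and 206 CPM at stage 10.5, against 220.5 and 229.6 CPM at stage 9, and 5 of them fell, or 3 without stage 10.5 replicate B. The 2 called higher were dazl.L (log2 fold change 1.87) and ddx4.L (0.67), the latter not called without stage 10.5 replicate A. Across the 14 alternative settings the vegetal list had 3 to 7 called higher and 1 to 5 lower, and the mesoderm list 4 to 7 higher and 1 to 6 lower. The part of such cells in the changes described below was not tested.

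The 10 steepest rises were taken among named genes of at least 20 CPM. The gene dlx3.L, a homeobox factor of non-neural ectoderm, had 31 and 24.7 CPM at stage 10.5, against 0.0418 and 0.0403 CPM at stage 9. With 2 counts in each stage 9 library its fitted log2 fold change of 9.29 depends on the prior count. The homeobox repressor ventx1.2.L, a target of BMP signals, had 95.2 and 102 CPM at stage 10.5, against 0.251 and 0.0805 CPM at stage 9, with a log2 fold change of 9.2 ± 0.34 (SE). The fatty acid elongase elovl3.L reached 126 and 87.5 CPM at stage 10.5, against 0.355 and 0.121 CPM at stage 9. The epithelial TRIM protein trim29.L had 262 and 163 CPM at stage 10.5, against 0.752 and 0.443 CPM at stage 9, with a log2 fold change of 8.46 ± 0.18 (SE). These genes were picked for the largest rises with a shared direction in both letters, and in all of them both stage 10.5 libraries stood far above both stage 9 libraries. The other 6 were the centriolar gene cep19.L (log2 fold change 8.91, from 6 counts in A and 0 in B at stage 9, with the log2 fold change of cep19.L at 13.73 without stage 9 replicate A), the caudal homeobox gene cdx1.S (8.19), the serine dehydratase sds.L (7.98), the calpain protease capn8.S (7.98), gata2.S (7.94) and the hypoxia-inducible factor epas1.S (7.94). The called genes here had adjusted p-values of 3.3e-07 to 1.7e-05 (edgeR quasi-likelihood, Benjamini-Hochberg).

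The 10 steepest falls were taken by the same level limit. Messenger RNA of btg3.S, of the BTG/Tob family that recruits deadenylases, had 1.11 and 0.603 CPM at stage 10.5, against 54.3 and 91.3 CPM at stage 9. Its relative btg4.L, which acts in removal of maternal transcripts in mouse eggs, had 2.26 and 4 CPM at stage 10.5, against 69.7 and 95.9 CPM at stage 9. The B-type cyclin ccnb5.L had 5.78 and 6.91 CPM at stage 10.5, against 259.6 and 403 CPM at stage 9, with a log2 fold change of -5.74 ± 0.81 (SE). The 2 copies of cpeb1, the binding protein of cytoplasmic polyadenylation elements, fell together. The L copy had 9.8 and 7.24 CPM at stage 10.5, against 170.4 and 326 CPM at stage 9, and the S copy had 5.43 and 7.44 CPM at stage 10.5, against 117 and 322 CPM at stage 9. For cpeb1.S the log2 fold change of -5.14 ± 1.12 (SE) became -3.42 without stage 9 replicate B, which held the higher stage 9 level. The forkhead factor foxi2.S, a maternal activator in Xenopus ectoderm, had 11.2 and 9.5 CPM at stage 10.5, against 365 and 324 CPM at stage 9. The remaining genes were ccdc69.S (log2 fold change -5.36), zfp36l2.1.S (-5.28), the F-box gene fbxo30.L (-5.18) and klf4.L (-4.84). In the edgeR quasi-likelihood fit, adjusted p (Benjamini-Hochberg) ranged from 8.2e-07 to 0.0045 for the called genes of this group.

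Bone morphogenetic proteins (BMPs) signal through Smad proteins, and in the gastrula ectoderm they promote epidermis at the expense of neural tissue. Of 75 tested genes of the BMP list 40 rose and 22 fell, with a median log2 fold change of 1.21 in the A pair and 0.64 in the B pair. Among the ligands, bmp4 and bmp2 moved in opposite directions. The gene bmp4.S had 54.9 and 46.7 CPM at stage 10.5, against 12.6 and 13.9 CPM at stage 9, whereas bmp2.S had 2.61 and 4.07 CPM at stage 10.5, against 37 and 45.3 CPM at stage 9. The L copy of bmp2 fell as well, with a log2 fold change of -3.28 ± 0.25 (SE). For bmp4.L the log2 fold change of 1.16 ± 0.33 became 0.58 and lost its call without stage 9 replicate A, was 1.90 without stage 9 replicate B, and also lost its call without stage 10.5 replicate A. Summed over both copies, bmp2 had 4.52 and 6.05 CPM at stage 10.5, against 54.1 and 66.2 CPM at stage 9, and bmp4 had 92.7 and 81.2 CPM at stage 10.5, against 23.2 and 35.9 CPM at stage 9. The ligand admp.S, made in the organizer, had 0.499 and 0.854 CPM at stage 10.5, against 11.2 and 12.7 CPM at stage 9, with a log2 fold change of -4.14 ± 0.42 (SE).

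Among targets of BMP signals, all 9 tested ventx genes rose, and their summed level was 1118 and 1272 CPM at stage 10.5, against 34.3 and 65.6 CPM at stage 9. Among them ventx2.1.L had 318 and 296 CPM at stage 10.5, against 6.17 and 7.03 CPM at stage 9, with a log2 fold change of 5.53 ± 0.2 (SE). The helix-loop-helix inhibitor id3.S, an early BMP target, had 768 and 627 CPM at stage 10.5, against 23.1 and 44.6 CPM at stage 9, and id3.L had 689 and 568 CPM at stage 10.5, against 32 and 60.9 CPM at stage 9. Sizzled, a secreted inhibitor of the proteases that release BMP, had 113.9 and 98.8 CPM at stage 10.5, against 0.334 and 0.624 CPM at stage 9 for szl.L. The pseudoreceptor bambi.L had 219 and 190.0 CPM at stage 10.5, against 34.4 and 34 CPM at stage 9. Of the inhibitory Smads, smad7 rose in both copies, with log2 fold changes of 2.63 ± 0.25 for smad7.L and 3.4 ± 0.25 for smad7.S (SE). In contrast smad6.S fell, with 19.1 and 18.2 CPM at stage 10.5, against 45.6 and 38 CPM at stage 9, and smad6.L was not called (log2 fold change -0.49 ± 0.23). The call of smad6.S was lost without stage 10.5 replicate A. Benjamini-Hochberg adjusted p-values from edgeR's quasi-likelihood fit went from 7.1e-07 to 0.0062 over the called genes given.

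Transcription factors of the ectoderm were mostly called higher. The list held GATA, Tfap2, Dlx, Msx and Grhl genes and, beside these families, tp63 and both copies of trim29. Of its 38 tested genes 24 rose, trim29.L and trim29.S among them, and 2 fell. The median log2 fold change was 3.25, or 3.03 with genes at the floor of 3 counts set to their bound. The zinc finger factor gata2.S, which acts downstream of BMP in the epidermis, had 133 and 99.6 CPM at stage 10.5, against 0.669 and 0.282 CPM at stage 9. Its paralogue gata3.L had 10.9 and 10.8 CPM at stage 10.5, against 0.0836 and 0.161 CPM at stage 9. The homeobox gene dlx5.L had 61.4 and 58.8 CPM at stage 10.5, against 0.961 and 0.846 CPM at stage 9, and dlx3.S had 55.3 and 40.7 CPM at stage 10.5, against 0.167 and 0.604 CPM at stage 9. The activator tfap2a.L, needed for epidermal keratin expression and later for neural crest, had 238 and 189 CPM at stage 10.5, against 13.6 and 19.8 CPM at stage 9. Its relative tfap2c.S was already present at a like level at stage 9 and was not called, with 258 and 246 CPM at stage 10.5, against 205 and 249.8 CPM at stage 9. The grainyhead genes split. The epidermal grhl3.L rose, with 531 and 400.4 CPM at stage 10.5, against 43 and 35.4 CPM at stage 9, whereas both copies of grhl1 fell, grhl1.S by a log2 fold change of -0.92 ± 0.18 and grhl1.L by -0.56 ± 0.14 (SE). Without stage 9 replicate B the value of grhl1.S was -0.59, and the call of grhl1.L was lost without stage 10.5 replicate B and with no replicate block. The pair of stage 10.5 libraries did not overlap with the pair of stage 9 libraries for any called gene of this group given here. The share of all tested genes with such separation was not counted, so it is not read as a trait of this group. By edgeR's quasi-likelihood test, Benjamini-Hochberg adjusted p-values of the called genes named here ran from 5.0e-07 to 0.0073.

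**Figure D1:**
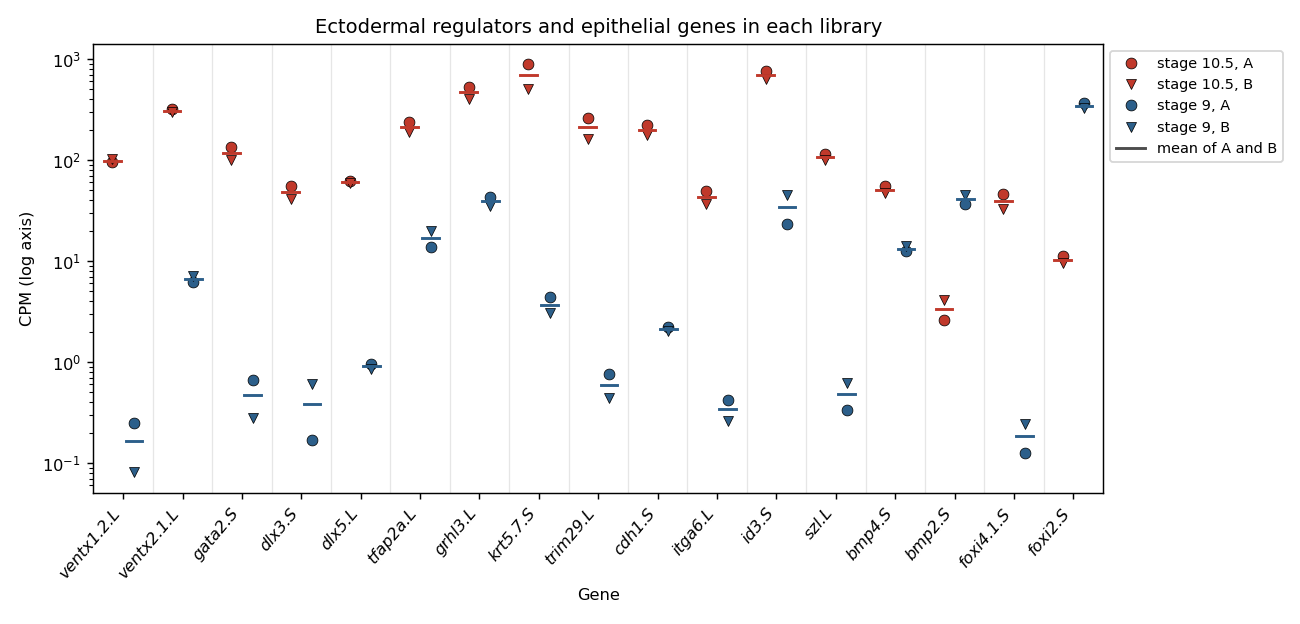
Levels of 17 ectodermal and epithelial genes in each library, as CPM on a log axis, with stage 10.5 (red) left of stage 9 (blue), circles for A, triangles for B and bars for the mean of both. In all genes shown except bmp2.S and foxi2.S both stage 10.5 libraries lie above both stage 9 libraries. The genes were picked from called genes with their values known, and the share of all tested genes with such separation was not counted. Genes not shown include grhl1.S, dsc3.S and cdh1.L, which fell, and tfap2c.S, which was not called.

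Keratins and E-cadherin were among the structural epithelial genes that rose. Of 30 tested keratins and other intermediate filament genes 22 rose and 0 fell, at a median log2 fold change of 2.23, or 1.90 with floor genes at their bound. Their summed level was 3425 and 2449.6 CPM at stage 10.5, against 822 and 684 CPM at stage 9. The keratin krt5.7.S, a major filament protein of frog larval skin, had 884 and 506 CPM at stage 10.5, against 4.37 and 3.02 CPM at stage 9, with a log2 fold change of 7.53 ± 0.21 (SE). The other copy krt5.7.L had 573 and 384 CPM at stage 10.5, against 4.26 and 3.64 CPM at stage 9. Of 52 cadherins, catenins and protocadherins 27 rose and 10 fell. E-cadherin cdh1.S, the epithelial adhesion protein, had 223 and 176 CPM at stage 10.5, against 2.24 and 2.01 CPM at stage 9. The maternal cadherin cdh3.L, which holds blastomeres together, also rose but far less, with 526 and 509 CPM at stage 10.5, against 288 and 331 CPM at stage 9, while cdh3.S was not called (log2 fold change 0.21 ± 0.11). Protocadherin pcdh7.L had 43.1 and 41.8 CPM at stage 10.5, against 2.01 and 3.22 CPM at stage 9, and the desmocollin dsc3.S of desmosomes fell, with 11.7 and 8.64 CPM at stage 10.5, against 47.4 and 52.9 CPM at stage 9. Hyaluronan synthase has1.S was among the 5 risen genes with the highest CPM, which is not corrected for gene length, with 3698 and 2592 CPM at stage 10.5, against 152 and 126 CPM at stage 9.

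Cell-matrix genes leaned upward by number of calls, but not in summed level. Of 75 integrins, laminins, collagens and fibronectin genes 35 rose and 8 fell, with a median of 1.2. Their summed level was 1836 and 1759 CPM at stage 10.5, against 1750 and 1761 CPM at stage 9. Integrin itga6.L, a laminin receptor of basal epithelial cells, had 49.8 and 36.8 CPM at stage 10.5, against 0.418 and 0.262 CPM at stage 9. The hemidesmosomal collagen col17a1.L had 12.3 and 5.75 CPM at stage 10.5, against 0.0836 and 0.181 CPM at stage 9. The fibronectin receptor subunit itga5.L moved the other way, with 66.1 and 79.2 CPM at stage 10.5, against 273 and 346 CPM at stage 9, with a log2 fold change of -2.09 ± 0.12 (SE). Of 48 claudins and tight junction genes 17 rose and 19 fell, or 9 and 16 without stage 10.5 replicate A. The claudin cldn4.S had 328 and 437 CPM at stage 10.5, against 24.4 and 51.3 CPM at stage 9, whereas the polarity scaffold mpp5.S had 2 and 2.14 CPM at stage 10.5, against 42.2 and 42.2 CPM at stage 9, and the junction protein cgnl1.S had 19.1 and 18.8 CPM at stage 10.5, against 95.1 and 97 CPM at stage 9. Of 35 connexins, pannexins and annexins 15 rose and 2 fell. With no replicate block 9 of these rises were called. The called genes here had adjusted p-values of 3.6e-07 to 5.2e-05 (edgeR quasi-likelihood, Benjamini-Hochberg).

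Pluripotency in the frog blastula rests on POU class V factors, Sox proteins and Ventx proteins. The list tested held pou5f3, ventx and Sox genes together with other factors, such as cdx1.S, pou3f1.S and tcf3.L. Of all 46 genes in this mixed list 34 rose, 8 fell and 4 were not called, with a median log2 fold change of 3.36, and 5 falls were called without either stage 10.5 library. The 3 pou5f3 genes, relatives of mammalian Oct4 that lie next to each other in the frog genome, did not move together. Summed over both copies, pou5f3.3 had 91.2 and 124 CPM at stage 10.5, against 1415 and 1421 CPM at stage 9. Over the same interval pou5f3.1 had 989 and 932 CPM at stage 10.5, against 43.8 and 40.9 CPM at stage 9, and pou5f3.2 had 2965 and 2595 CPM at stage 10.5, against 531 and 407 CPM at stage 9. The log2 fold changes were -3.58 ± 0.34 for pou5f3.3.L, 4.91 ± 0.2 for pou5f3.1.L and 2.76 ± 0.18 for pou5f3.2.L (SE). The 6 pou5f3 IDs together summed to 4045 and 3651 CPM at stage 10.5, against 1990.0 and 1869 CPM at stage 9. Sox3, a factor of pluripotent and neural ectoderm, was not called in either copy, with 554 and 618 CPM at stage 10.5, against 571 and 622 CPM at stage 9 for sox3.S and 242 and 275 CPM at stage 10.5, against 295 and 236 CPM at stage 9 for sox3.L. Its relative sox2.L rose, with 8.19 and 12 CPM at stage 10.5, against 1.96 and 3.83 CPM at stage 9. Of 28 tested Sox genes 8 rose and 4 fell, or 2 falls without stage 10.5 replicate A and with no replicate block, the steepest fall being that of sox9.L (log2 fold change -2.09 ± 0.23). In the edgeR quasi-likelihood fit, adjusted p (Benjamini-Hochberg) ranged from 1.1e-06 to 2.7e-04 for the called genes of this group.

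Other homeobox, forkhead and Krüppel-like families held members of both directions. Of 110 tested Hox and other patterning homeobox genes 37 (33.6%) rose, close to the background of 30.3%. Falls numbered 8 (7.27%), under the background of 28.1%, and the median log2 fold change was 0.96. Both counts shifted when single libraries were left out. Levels were low in part of this list, as the 31 tested genes named hox summed to 14.2 and 30.5 CPM at stage 10.5, against 6.23 and 28.4 CPM at stage 9. The TALE factor meis3.S, a regulator of hindbrain fate, had 39.7 and 34.7 CPM at stage 10.5, against 0.543 and 0.463 CPM at stage 9, while meis1.S had 0.264 and 0.402 CPM at stage 10.5, against 2.99 and 7.49 CPM at stage 9. Of 62 forkhead genes 13 (21.0%) rose and 17 (27.4%) fell, against the background of 30.3% and 28.1%. Within the foxi group foxi4.1.S had 46.3 and 33.1 CPM at stage 10.5, against 0.125 and 0.242 CPM at stage 9, and foxi1.S had 28.8 and 29.3 CPM at stage 10.5, against 1.25 and 0.362 CPM at stage 9, while the 2 copies of foxi2 summed to 17.1 and 39.8 CPM at stage 10.5, against 610.2 and 683 CPM at stage 9. Of 39 Klf and Sp factors 14 rose and 10 fell, with klf17.L at 267 and 188 CPM at stage 10.5, against 14.5 and 10.2 CPM at stage 9, and klf4.L at 0.645 and 1.26 CPM at stage 10.5, against 22 and 32.9 CPM at stage 9. Of 60 T-box and helix-loop-helix genes 22 rose and 12 fell, among them the Max-interacting repressor mxi1.L (log2 fold change 4.51 ± 0.21) and mycn.S (-2.68 ± 0.45). Without stage 10.5 replicate B these counts were 14 and 7. Benjamini-Hochberg adjusted p-values from edgeR's quasi-likelihood fit went from 3.6e-07 to 0.0011 over the called genes given.

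A list of zinc finger genes named znf or zfp, with Zic and Zeb factors and others such as zbtb20.S and sall2.L, leaned downward. Of 284 tested 138 fell and 68 rose, with a median log2 fold change of -0.52. The zfp36 genes belong to this list by name only, since they encode CCCH proteins that bind AU-rich RNA. Of the 170 genes named znf 89 fell and 35 rose, and of 66 named zbtb 35 fell and 10 rose.

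Neural markers were tested as a second outcome of ectoderm. Of 14 tested, 10 rose and 1 fell, at a median of 1.57, and 6 rises were called without stage 10.5 replicate A. The RNA-binding protein elavl3.L, usually read as neuronal, had 72.7 and 64.7 CPM at stage 10.5, against 0.731 and 0.805 CPM at stage 9, and the tubulin tubb2b.L had 54.2 and 28.4 CPM at stage 10.5, against 3.2 and 4.63 CPM at stage 9. The proneural factor neurog2.S fell, with 2.14 and 1.73 CPM at stage 10.5, against 7.33 and 6.38 CPM at stage 9, a call that was lost without stage 10.5 replicate B. Mesoderm and organizer genes were called in both directions. The BMP antagonist chrd.L had 7.69 and 6.81 CPM at stage 10.5, against 0.481 and 0.282 CPM at stage 9, the T-box factor eomes.L had 9.95 and 16.6 CPM at stage 10.5, against 3.64 and 1.99 CPM at stage 9, and the LIM homeobox gene lhx1.S had 0.528 and 1.71 CPM at stage 10.5, against 5.6 and 4.93 CPM at stage 9. The call of lhx1.S was lost without stage 10.5 replicate A. The endodermal factor sox17b.2.L had 16.8 and 32.4 CPM at stage 10.5, against 13.7 and 11.8 CPM at stage 9, a rise that was not called without stage 9 replicate B (log2 fold change 0.34), without either stage 10.5 library or with no replicate block.

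Nodal ligands act through Foxh1 and Smad2 to induce mesoderm and endoderm. Of 40 tested genes of this list 11 rose and 13 fell, and 6 rises were called without either stage 10.5 library in turn. Both copies of foxh1, the maternal partner of Smad2, fell. The L copy had 51.4 and 57.4 CPM at stage 10.5, against 429.9 and 429 CPM at stage 9, and the S copy had 0.645 and 2.26 CPM at stage 10.5, against 12.3 and 19 CPM at stage 9. The Nodal co-receptor tdgf1.1.L had 20.1 and 13.6 CPM at stage 10.5, against 159 and 146 CPM at stage 9. The Smad repressor skil.S rose, with 90.5 and 81 CPM at stage 10.5, against 31.3 and 27.4 CPM at stage 9.

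Of 97 tested Wnt genes 39 rose and 29 fell, and 25 rises were called without either stage 10.5 library in turn. The non-canonical ligand wnt5b.L had 18.4 and 36.2 CPM at stage 10.5, against 0.878 and 0.523 CPM at stage 9, with B above A at stage 10.5. The Dickkopf co-receptor kremen2.L had 4.31 and 5.73 CPM at stage 10.5, against 0.209 and 0.0403 CPM at stage 9. Receptor fzd1.L fell, with 1.58 and 1.88 CPM at stage 10.5, against 15.2 and 30.9 CPM at stage 9, and so did the ligase znrf3.L, which removes Frizzled receptors, with 2.14 and 2.29 CPM at stage 10.5, against 22 and 19.4 CPM at stage 9. The Wnt target sp5l.L rose, with 120.5 and 192 CPM at stage 10.5, against 58.8 and 81.7 CPM at stage 9, and sp5l.S was not called (log2 fold change 0.84 ± 0.45). Of 52 FGF genes 12 rose and 22 fell, with a median of -0.57, or 14 falls without stage 10.5 replicate B. Receptor fgfr2.L had 140.3 and 92.8 CPM at stage 10.5, against 4.28 and 2.96 CPM at stage 9, whereas fgfr3.L had 1.82 and 1.73 CPM at stage 10.5, against 15.5 and 16 CPM at stage 9. The ERK phosphatase dusp6.S, a feedback target of FGF signals, had 40.8 and 33.1 CPM at stage 10.5, against 6.98 and 8.82 CPM at stage 9, and the ETS factor ets1.S had 13.8 and 13.1 CPM at stage 10.5, against 178 and 201 CPM at stage 9. By edgeR's quasi-likelihood test, Benjamini-Hochberg adjusted p-values of the called genes named here ran from 3.6e-07 to 0.0028.

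Among 64 Hedgehog, retinoic acid and nuclear receptor genes 21 rose and 16 fell. The retinoic acid-binding protein crabp2.L had 131 and 91.6 CPM at stage 10.5, against 1.61 and 0.322 CPM at stage 9, and the Hedgehog co-receptor cdon.L had 34.1 and 25 CPM at stage 10.5, against 0.857 and 0.282 CPM at stage 9. The Hedgehog exporter disp1.L moved downward, with 6.78 and 8.79 CPM at stage 10.5, against 88.1 and 103.1 CPM at stage 9, as did the glucocorticoid receptor nr3c1.L (log2 fold change -3.06 ± 0.26). Of 70 Eph, ephrin, semaphorin and Slit-Robo genes 23 rose and 24 fell. Secreted semaphorin sema3f.L had 89.8 and 114.4 CPM at stage 10.5, against 1.27 and 1.21 CPM at stage 9, and the ephrin efna5.L had 6.69 and 4.7 CPM at stage 10.5, against 61.5 and 36.2 CPM at stage 9.

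Early cleavage cycles depend on maternal cyclins and on brief Cdk1 inhibition, and gap phases with checkpoints appear after the midblastula transition. Of 48 cyclins and cyclin-dependent kinases 20 rose and 13 fell. The embryonic cyclin ccna1 fell in both copies, and together they summed to 57 and 129 CPM at stage 10.5, against 1493 and 2001 CPM at stage 9. The somatic cyclin ccna2 summed to 1160.3 and 897 CPM at stage 10.5, against 1078 and 1049.5 CPM at stage 9, with ccna2.L not called and ccna2.S called lower (log2 fold change -0.48 ± 0.13), a call lost without stage 9 replicate B, without either stage 10.5 library and with no replicate block. Cyclin E1, which sets the maternal cycle timer, was not called in either copy, with 409.6 and 459 CPM at stage 10.5, against 438 and 475 CPM at stage 9 for ccne1.L. The G1 cyclin ccnd1.L had 24.3 and 23.9 CPM at stage 10.5, against 0.167 and 0.383 CPM at stage 9, and the B-type cyclin ccnb3.S had 183 and 126 CPM at stage 10.5, against 2.84 and 1.23 CPM at stage 9. The mitotic cyclin ccnb2.L fell by a smaller amount, with 486 and 384 CPM at stage 10.5, against 822 and 908 CPM at stage 9. The called genes here had adjusted p-values of 5.6e-07 to 0.011 (edgeR quasi-likelihood, Benjamini-Hochberg).

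Of 66 genes of Cdk1 switches, checkpoint and mitotic exit 37 fell and 16 rose, with a median log2 fold change of -0.57. The phosphatase cdc25a.L, which activates Cdk1, had 3.46 and 3.37 CPM at stage 10.5, against 32.7 and 36.5 CPM at stage 9. The checkpoint kinase chek1.S had 6.1 and 6.56 CPM at stage 10.5, against 36.8 and 32.1 CPM at stage 9. The Wee kinases, which inhibit Cdk1, went opposite ways. The maternal wee2.L had 43.6 and 61.5 CPM at stage 10.5, against 222 and 204 CPM at stage 9, and the zygotic wee1.S had 39.9 and 63.8 CPM at stage 10.5, against 21.2 and 23.7 CPM at stage 9. Emi2, the factor that holds the egg in metaphase, fell in both copies, with 2.26 and 6.51 CPM at stage 10.5, against 77.5 and 134 CPM at stage 9 for fbxo43.L. Polo-like kinase plk2.L rose, with 195 and 176 CPM at stage 10.5, against 4.56 and 2.03 CPM at stage 9, with a log2 fold change of 5.85 ± 0.31 (SE). Of 19 tested subunits of the anaphase-promoting complex 11 fell and 2 rose.

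Replication licensing loads Mcm helicases at origins through Orc, Cdc6 and Cdt1. Of 73 genes of this list 20 rose and 26 fell, and 10 rises were called without stage 10.5 replicate A. The 13 tested genes of Mcm2 to Mcm7 included 9 that rose and 1 that fell, summing to 2990.3 and 2524 CPM at stage 10.5, against 1788 and 1737 CPM at stage 9. Frogs have maternal and zygotic forms of some Mcm subunits. The zygotic zmcm3.L had 293 and 218 CPM at stage 10.5, against 9.97 and 6.76 CPM at stage 9, and mcm6.2.L had 57.4 and 36 CPM at stage 10.5, against 6.94 and 6.38 CPM at stage 9, while mcm6.L was not called (log2 fold change -0.31 ± 0.17). Geminin gmnn.L, the inhibitor of licensing, had 89.3 and 69 CPM at stage 10.5, against 409.6 and 446 CPM at stage 9, and orc1.L, an origin subunit, had 36.3 and 50.1 CPM at stage 10.5, against 195 and 225 CPM at stage 9. Of the initiation factors that become limiting at the midblastula transition in Xenopus, recql4.L had 15.9 and 17.5 CPM at stage 10.5, against 49.3 and 42.6 CPM at stage 9, and topbp1.L had 11.5 and 10.5 CPM at stage 10.5, against 25.2 and 28.2 CPM at stage 9. Another, ticrr, was not called in its L copy, with 35.3 and 33 CPM at stage 10.5, against 29 and 38.3 CPM at stage 9, and fell in its S copy (log2 fold change -0.64 ± 0.18), a call lost without stage 9 replicate A, without either stage 10.5 library and with no replicate block. In the edgeR quasi-likelihood fit, adjusted p (Benjamini-Hochberg) ranged from 3.9e-07 to 0.014 for the called genes of this group.

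Histone genes leaned upward and chromatin modifiers downward. Of 48 linker histones, histone variants and chaperones 26 rose and 11 fell, or 7 falls with no replicate block. The histone H2A gene hist2h2ab.S had 316 and 202 CPM at stage 10.5, against 15.6 and 12.9 CPM at stage 9. Since most replication histone messages lack a poly-A tail, their values rest on the tailed part. The oocyte linker histone h1foo.L had 66.5 and 59.95 CPM at stage 10.5, against 307 and 238 CPM at stage 9, while h1foo.S had 409 and 362 CPM at stage 10.5, against 472 and 479.6 CPM at stage 9, with a log2 fold change of -0.31 ± 0.11 (SE) whose call was lost in 9 of 14 alternatives. The histone stem-loop binding protein slbp.L had the highest stage 9 CPM among fallen genes, with no correction for length, and had 631 and 610.1 CPM at stage 10.5, against 1170.0 and 1168 CPM at stage 9.

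Of 72 DNA methylation, Polycomb and Trithorax genes 44 fell and 8 rose, with a median log2 fold change of -0.61, and 29 falls and 3 rises were called without stage 10.5 replicate A. The 5-methylcytosine oxidase tet3.S had 0.675 and 2.29 CPM at stage 10.5, against 9.03 and 22.6 CPM at stage 9. The Polycomb methyltransferase ezh2.L rose, with 288 and 253 CPM at stage 10.5, against 170.4 and 168 CPM at stage 9. The H3K9 methyltransferase suv39h2.L had 98.2 and 78.7 CPM at stage 10.5, against 43.4 and 37.1 CPM at stage 9. Of 88 acetylation, remodelling and cohesin genes 34 fell and 23 rose, or 14 rises without stage 10.5 replicate A. The bromodomain protein brd2.S had 299.8 and 274 CPM at stage 10.5, against 33.9 and 35.9 CPM at stage 9, and the deacetylase hdac4.L had 10.2 and 9.2 CPM at stage 10.5, against 64.5 and 58.5 CPM at stage 9. Of 19 genes named kdm, histone demethylases, 11 fell and 1 rose. Benjamini-Hochberg adjusted p-values from edgeR's quasi-likelihood fit went from 1.5e-06 to 6.3e-04 over the called genes given.

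Messenger RNA decay factors changed in composition. Of 117 deadenylation, decapping and decay genes 59 fell and 28 rose, at a median of -0.38, and 17 rises were called without stage 10.5 replicate A. Of 16 genes of the Ccr4-Not deadenylase 10 fell and 2 rose. Proteins of the Zfp36 family bring that complex to AU-rich messages. The zfp36l2 IDs summed to 122 and 127 CPM at stage 10.5, against 592 and 652 CPM at stage 9, whereas zfp36 summed to 47.4 and 53.1 CPM at stage 10.5, against 2.42 and 1.95 CPM at stage 9. The BTG genes split as well. While btg3 and btg4 fell, btg1.L had 443 and 425 CPM at stage 10.5, against 46.9 and 54 CPM at stage 9, and btg2.S had 20.1 and 20.2 CPM at stage 10.5, against 2.82 and 3.92 CPM at stage 9. The S copy of btg1 was not called, with 303 and 328 CPM at stage 10.5, against 193 and 277 CPM at stage 9.

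Proteins that store oocyte messages did not move as one. Of 79 genes of oocyte translational control 30 fell and 22 rose, with a median of -0.04. Apart from the falls of cpeb1, several genes of egg proteins were not called. The cap-binding protein eif4e1b.S had 102 and 84.3 CPM at stage 10.5, against 97 and 84.3 CPM at stage 9, and zar1.S, a regulator of the oocyte-to-embryo transition, had 23.6 and 15.1 CPM at stage 10.5, against 20.7 and 13.47 CPM at stage 9. Also not called were zar1.L, with 2.73 and 1.51 CPM at stage 10.5, against 1.84 and 1.65 CPM at stage 9, the egg poly-A binding protein pabpc1l.L, with 13.4 and 14 CPM at stage 10.5, against 15.5 and 13.6 CPM at stage 9, and the Y-box protein ybx2.L, with 68.8 and 65.4 CPM at stage 10.5, against 60.4 and 53.8 CPM at stage 9. Its S copy was called higher, with 81.5 and 80.5 CPM at stage 10.5, against 59.3 and 57.8 CPM at stage 9 (edgeR quasi-likelihood, adjusted p = 0.038), a call lost with no replicate block and without each of the 4 libraries of these stages in turn. The somatic poly-A binding protein pabpc1.S rose, with 1329 and 1166 CPM at stage 10.5, against 628 and 616 CPM at stage 9. The let-7 antagonist lin28a.L had 116 and 138 CPM at stage 10.5, against 0.899 and 2.64 CPM at stage 9, and the granule protein caprin2.S had 128 and 85.2 CPM at stage 10.5, against 3.53 and 1.31 CPM at stage 9.

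**Figure D2:**
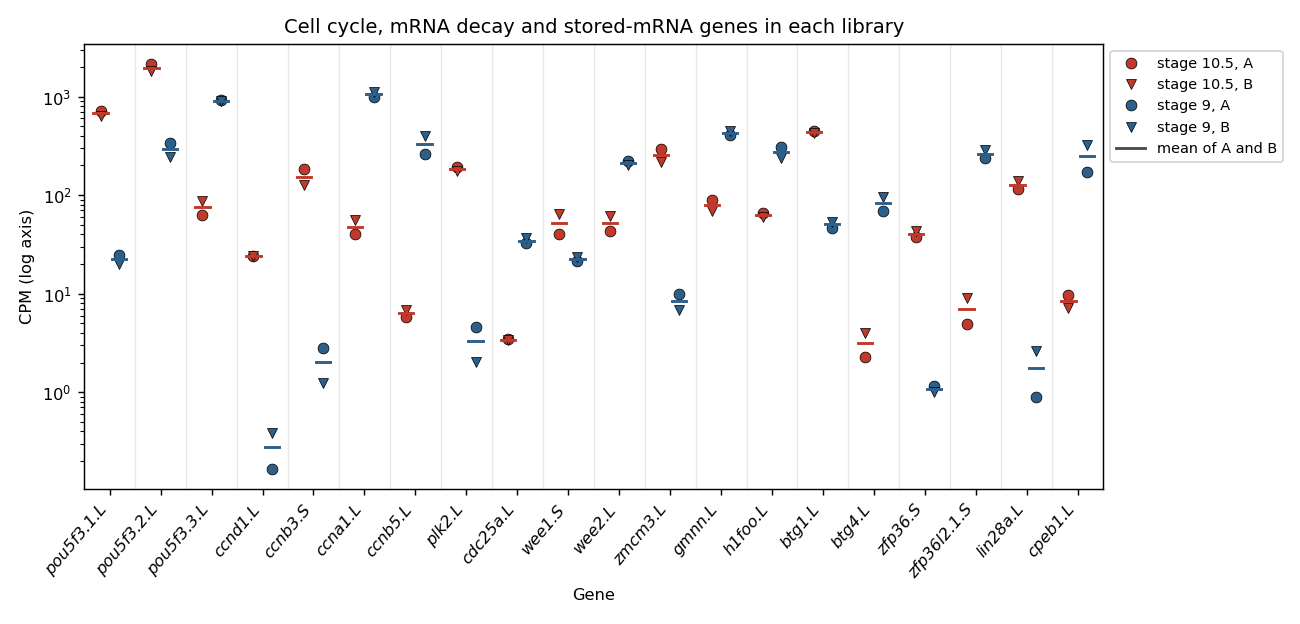
Levels of 20 genes of the cell cycle, RNA decay and message storage in each library, as CPM on a log axis, with stage 10.5 (red) left of stage 9 (blue), circles for A, triangles for B and bars for the mean. Related genes such as pou5f3.1.L and pou5f3.3.L, or btg1.L and btg4.L, are higher at opposite stages.

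General transcription factors were mixed, with 31.4% higher and 37.1% lower, against 30.3% and 28.1% of all genes tested. Of 140 RNA polymerase II, general factor and Mediator genes 44 rose and 52 fell, and 21 rises were called without stage 10.5 replicate A. TATA-binding protein fell in both copies, with 19.8 and 22.8 CPM at stage 10.5, against 169 and 302 CPM at stage 9 for tbp.S and 8.19 and 10.5 CPM at stage 10.5, against 98.2 and 110.3 CPM at stage 9 for tbp.L. The gene gtf2a1.S, a subunit of TFIIA, had 493 and 646 CPM at stage 10.5, against 888 and 949 CPM at stage 9. Subunit polr2k.S of the polymerase had 7.3 and 7.01 CPM at stage 10.5, against 0.418 and 0.664 CPM at stage 9, and taf12.S of TFIID had 50.2 and 45.5 CPM at stage 10.5, against 11.6 and 9.44 CPM at stage 9.

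The splicing machinery rose broadly. Of 125 splicing factors and snRNP genes 99 rose and 8 fell, with a median of 0.77, where 30.3% of all genes rose, and 4 falls were called without either stage 10.5 library. Their summed level was 52451 and 44591 CPM at stage 10.5, against 22618 and 22112 CPM at stage 9. Within it 28 of 32 hnRNP genes rose, and they summed to 22497 and 18525 CPM at stage 10.5, against 8004 and 7772 CPM at stage 9. Of 17 SR protein genes, which promote exon recognition, 15 rose and 0 fell, summing to 11498 and 10035 CPM at stage 10.5, against 4121 and 4024 CPM at stage 9. Of 28 genes named snrp or snrnp, core proteins of the spliceosomal particles, 24 rose and 2 fell. The steepest rises were those of celf3.S, with 25.2 and 17.9 CPM at stage 10.5, against 0.146 and 0.161 CPM at stage 9, and hnrnpr.L, with 88.3 and 45.8 CPM at stage 10.5, against 3.26 and 2.84 CPM at stage 9. Among the risen genes with the highest CPM, the cold-inducible RNA-binding protein cirbp.L had 3777 and 3157 CPM at stage 10.5, against 749 and 686 CPM at stage 9, and the arginine methyltransferase prmt1.L had 3648 and 2966 CPM at stage 10.5, against 1000.0 and 999 CPM at stage 9. Of the falls, hnrnpll.S had 13.8 and 7.61 CPM at stage 10.5, against 27.3 and 13.8 CPM at stage 9, so that the stages met at the lower stage 9 library, and its call was lost without stage 10.5 replicate A and with no replicate block.

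Ribosomal protein genes rose almost without exception. Of 120 tested cytoplasmic ribosomal protein genes 116 rose and 0 fell, with a median log2 fold change of 1.46. Their summed level was 5130.2 and 4529.9 CPM at stage 10.5, against 1886 and 1853 CPM at stage 9. Taken by letter from CPM with a small constant added, and not from the fit, the median was 1.54 in A and 1.35 in B. The 4 genes not called were rpl4.S, rpl24.S, rpl35a.S and rps26.L. The largest changes were those of the small-subunit genes rps21.L, with 6.25 and 6.58 CPM at stage 10.5, against 0.418 and 0.564 CPM at stage 9, and rps21.S, with 16.6 and 12 CPM at stage 10.5, against 1.13 and 1.15 CPM at stage 9. Of 38 homeolog pairs both copies rose in 34. Mitochondrial ribosomal proteins, encoded in the nucleus, numbered 91, of which 17 rose and 17 fell, at a median of 0.12. Without stage 10.5 replicate A these counts were 5 and 10.

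Genes that make and feed ribosomes also leaned upward. Of 57 ribosome biogenesis genes 41 rose and 1 fell, with a median of 0.65. The small-subunit processome genes utp15.L and emg1.L led, with 36.3 and 32.4 CPM at stage 10.5, against 3.45 and 4.85 CPM at stage 9 for utp15.L and 19.4 and 16.5 CPM at stage 10.5, against 3.05 and 2.17 CPM at stage 9 for emg1.L. Of 90 translation initiation and elongation factors 51 rose and 11 fell. Of these the 22 eIF3 genes had 16 rises and 0 falls. Elongation factor eef1a1o.S, which delivers aminoacyl-tRNA, had the highest CPM of all risen genes, with 5075 and 4201 CPM at stage 10.5, against 364 and 360.5 CPM at stage 9, with a log2 fold change of 3.67 ± 0.13 (SE). Its somatic relative eef1a1.L had 1949 and 1483 CPM at stage 10.5, against 154 and 108 CPM at stage 9. Falls included the eIF2 kinase eif2ak3.S, with 15.5 and 15.9 CPM at stage 10.5, against 175 and 212 CPM at stage 9, and the ribosome anti-association factor eif6.S, with 15.3 and 17.1 CPM at stage 10.5, against 63.1 and 85.6 CPM at stage 9. Of 36 aminoacyl-tRNA synthetase genes 20 rose and 3 fell, though 8 rises were called without stage 10.5 replicate A. By edgeR's quasi-likelihood test, Benjamini-Hochberg adjusted p-values of the called genes named here ran from 5.0e-07 to 6.5e-05.

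Nuclear genes of oxidative phosphorylation rose in 62 of 117 cases and fell in 5, with a median of 0.53. The count of rises was 41 when stage 9 replicate A was left out, 27 for stage 10.5 replicate A and 31 for stage 10.5 replicate B. Complex III genes rose in 7 of 9, ATP synthase genes in 15 of 24 and complex I genes in 23 of 53. Subunit ndufa8.L of complex I had 15.6 and 13.4 CPM at stage 10.5, against 2.47 and 1.55 CPM at stage 9. The membrane anchor sdhd of complex II fell in both copies, with 20.6 and 16.9 CPM at stage 10.5, against 68.8 and 74.1 CPM at stage 9 for sdhd.S.

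Of 65 proteasome genes 44 rose and 1 fell, with a median of 0.62, or 25 rises when stage 10.5 replicate A was left out and 29 for replicate B. The ATPase subunit psmc5.L had 64.8 and 50.4 CPM at stage 10.5, against 22.7 and 16.4 CPM at stage 9, and the activator psme3.S was the only fall, with 34.6 and 57.4 CPM at stage 10.5, against 171 and 176 CPM at stage 9. Of 55 chaperonin and heat shock genes 23 rose and 12 fell, or 13 rises without stage 9 replicate A. The constitutive Hsp70 gene hspa8.S rose, with 1027 and 809.9 CPM at stage 10.5, against 208 and 209.6 CPM at stage 9, and the chaperonin subunit cct4.L fell, with 10.8 and 12.5 CPM at stage 10.5, against 47.8 and 52.3 CPM at stage 9. Of 47 genes of endoplasmic reticulum stress and folding 18 rose and 16 fell. The transcription factor xbp1.L had 348 and 287 CPM at stage 10.5, against 34.3 and 42.7 CPM at stage 9, whereas ern2.S, a relative of the enzyme that splices it, had 3.58 and 3.57 CPM at stage 10.5, against 56.1 and 59 CPM at stage 9. The stress factor atf4.S had 70.4 and 41.7 CPM at stage 10.5, against 5.29 and 3.97 CPM at stage 9.

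Centriole and centrosome genes had the highest share of falls among the 61 lists. Of 69 tested 51 fell and 4 rose, with a median of -1.03, where 28.1% of all genes fell. Their summed level was 2269 and 2151 CPM at stage 10.5, against 4283 and 4482 CPM at stage 9. Among 38 genes named cep 30 fell and 1, cep19.L, rose. Of 8 augmin (haus) genes, which branch spindle microtubules, 6 fell and 0 rose. The tubulin ring component tubgcp3.L had 4.58 and 5.6 CPM at stage 10.5, against 69.1 and 78 CPM at stage 9, and gamma-tubulin itself, tubg1.L, had 3.34 and 4.72 CPM at stage 10.5, against 43.1 and 66.8 CPM at stage 9. Augmin subunit haus4.L had 2.73 and 2.69 CPM at stage 10.5, against 33.8 and 41.4 CPM at stage 9. Both copies fell in 10 of 14 homeolog pairs. The called genes here had adjusted p-values of 3.3e-06 to 1.7e-04 (edgeR quasi-likelihood, Benjamini-Hochberg).

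Other cytoskeletal lists were mixed. Of 48 tubulins and actins 26 rose and 10 fell, with tubb4b.L, a beta-tubulin of cilia and other microtubules, at 1157 and 647 CPM at stage 10.5, against 28.1 and 20.8 CPM at stage 9. Of 105 kinesins, myosins and septins 28 rose and 35 fell, and 16 rises were called without stage 10.5 replicate B. The cytokinesis factor ect2.S fell, with 10 and 8.04 CPM at stage 10.5, against 68.1 and 52.3 CPM at stage 9, and the recycling motor myo5b.L rose, with 6.39 and 8.79 CPM at stage 10.5, against 0.815 and 0.725 CPM at stage 9. Of 66 ciliary dynein, IFT and BBS genes 15 rose and 17 fell. The BBSome subunit bbs9.L had 1.52 and 1.86 CPM at stage 10.5, against 23.5 and 27.1 CPM at stage 9, while the radial spoke gene rsph9.L of motile cilia had 17.9 and 15.7 CPM at stage 10.5, against 5.89 and 2.92 CPM at stage 9.

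Among genes of transport, V-ATPase subunits and ion pumps lay furthest from the background of 30.3% higher and 28.1% lower. Their shares were 54.3% higher and 6.52% lower, against 35.3% and 25.9% for ion channels and 23.6% and 36.9% for solute carriers. Of 46 V-ATPase subunits and ion pumps 25 rose and 3 fell. The V-ATPase subunit gene atp6v1c2.L had 6.01 and 4.02 CPM at stage 10.5, against 0.188 and 0.523 CPM at stage 9. Of 139 ion channels 49 rose and 36 fell. The calcium channel trpv5.L had 12 and 13.4 CPM at stage 10.5 and 0 counts in both stage 9 libraries, at least 206-fold higher than a floor of 3 counts per library. The cation channel trpm5.L had 20.2 and 12.5 CPM at stage 10.5, against 0.188 and 0.0805 CPM at stage 9, and the epithelial sodium channel subunit scnn1g.S had 5.08 and 4.52 CPM at stage 10.5, against 59 and 44.5 CPM at stage 9. Of 347 solute carriers 128 fell and 82 rose, or 85 falls without stage 10.5 replicate A. Mitoferrin slc25a37, the iron importer of mitochondria, fell in both copies, with 3.64 and 3.22 CPM at stage 10.5, against 76 and 74.8 CPM at stage 9 for slc25a37.L. The transporter slc16a12.S had 47.9 and 39.2 CPM at stage 10.5, against 0.648 and 0.463 CPM at stage 9.

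Glycolysis and pyruvate genes rose in 30 of 54 cases and fell in 7, though the rises numbered 15 without stage 10.5 replicate A. The glucose transporter slc2a1.L had 45.3 and 71.4 CPM at stage 10.5, against 2.36 and 3.76 CPM at stage 9, and both copies of pgam1, phosphoglycerate mutase, fell, with 4.14 and 3.02 CPM at stage 10.5, against 34 and 30.7 CPM at stage 9 for pgam1.S. Of 60 genes of amino acid, polyamine and nucleotide synthesis 32 rose and 7 fell, or 21 and 5 without stage 10.5 replicate A. Ornithine decarboxylase, which starts polyamine synthesis, rose, with 1856 and 1307 CPM at stage 10.5, against 694 and 708 CPM at stage 9 for odc1.L. The CTP synthase ctps1.L had 44.1 and 36 CPM at stage 10.5, against 6.52 and 6.4 CPM at stage 9. Sterol and sphingolipid genes leaned downward, with 20 of 54 falling and 10 rising at a median of -0.47. The sterol regulator srebf2.L had 8.19 and 10.9 CPM at stage 10.5, against 84.5 and 77.7 CPM at stage 9, and its escort protein scap.L had 9.33 and 7.24 CPM at stage 10.5, against 37.2 and 69.2 CPM at stage 9. A late enzyme of cholesterol synthesis, dhcr7.L, rose, with 8.21 and 14.4 CPM at stage 10.5, against 0.46 and 0.443 CPM at stage 9.

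Survival and stress genes were mixed. Of 55 p53 family and apoptosis genes 22 fell and 15 rose. The Cdk inhibitor cdkn1a.L, a p53 target, had 59.9 and 35.7 CPM at stage 10.5, against 2.95 and 2.62 CPM at stage 9, and the inhibitor of apoptosis birc7.S had 5.87 and 7.46 CPM at stage 10.5, against 108 and 70.01 CPM at stage 9. Of 54 immediate-early and stress genes 22 rose and 14 fell. The early-response factors fos and egr1 fell in both copies, with 7.33 and 6.23 CPM at stage 10.5, against 33.3 and 81.1 CPM at stage 9 for fos.S and 2.14 and 3.54 CPM at stage 10.5, against 9.43 and 15.1 CPM at stage 9 for egr1.L. Without stage 9 replicate B, the higher of the stage 9 libraries, the log2 fold change of fos.S was -2.0 instead of -3.1. Stage 9 caps were collected sooner after cutting than stage 10.5 caps, so stage and time since cutting cannot be told apart here. In contrast myc.L rose, with 147 and 123 CPM at stage 10.5, against 18.5 and 13 CPM at stage 9, and jun was not called in either copy (jun.S 0.1 ± 0.47, jun.L -0.7 ± 0.37). Of 93 genes of pattern recognition and interferon response 27 fell and 22 rose, with the chemokine cxcl12.L at 79.7 and 43 CPM at stage 10.5, against 3.36 and 1.71 CPM at stage 9.

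Families defined by a shared symbol stem were tallied over all tested genes, a choice made after the values were seen. There were 238 stems with at least 10 tested genes. In 5 stems at least 80% of genes rose, and these were rpl, rps, srsf, nop and hist. In 3 stems at least 80% fell, and these were golga, lrp and arid. All 10 tested golgins, coiled-coil tethers of the Golgi, fell, with log2 fold changes of -3.0 to -0.67, and summed to 356 and 375 CPM at stage 10.5, against 946 and 977 CPM at stage 9. Next by share of falls were cep, with 30 of 38 lower and 1 higher, atxn, with 11 of 14 lower and 1 higher, and mtmr, with 10 of 14 lower and 0 higher. Among other stems, zdhhc palmitoyltransferases fell in 17 of 24 cases and rose in 0, and sorting nexins fell in 31 of 50 and rose in 2, while rab genes fell in 34 of 97 and rose in 21. Deubiquitinases named usp fell in 37 of 56 cases and rose in 8. Of 34 fatty acid elongation and desaturation genes 11 rose and 5 fell, or 7 and 5 without either stage 10.5 library, with fatty acid synthase fasn.L at 19.6 and 18.4 CPM at stage 10.5, against 60.8 and 48.6 CPM at stage 9. Of 71 nuclear pore and lamina genes 23 rose and 25 fell, or 11 and 18 without stage 10.5 replicate A. Within it the egg lamin lmnb3.L had 115 and 122 CPM at stage 10.5, against 237 and 178 CPM at stage 9, and the somatic lamin lmnb1.L had 1075 and 979 CPM at stage 10.5, against 695 and 711 CPM at stage 9. Ubiquitin ligases of the TRIM and RNF families fell in 61 of 145 cases and rose in 35. Of 17 zona pellucida and yolk genes 4 rose and 5 fell, and 1 rise was called without stage 9 replicate A, with the yolk receptor vldlr.S at 9.95 and 11.1 CPM at stage 10.5, against 50.6 and 84.5 CPM at stage 9.

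**Figure D3:**
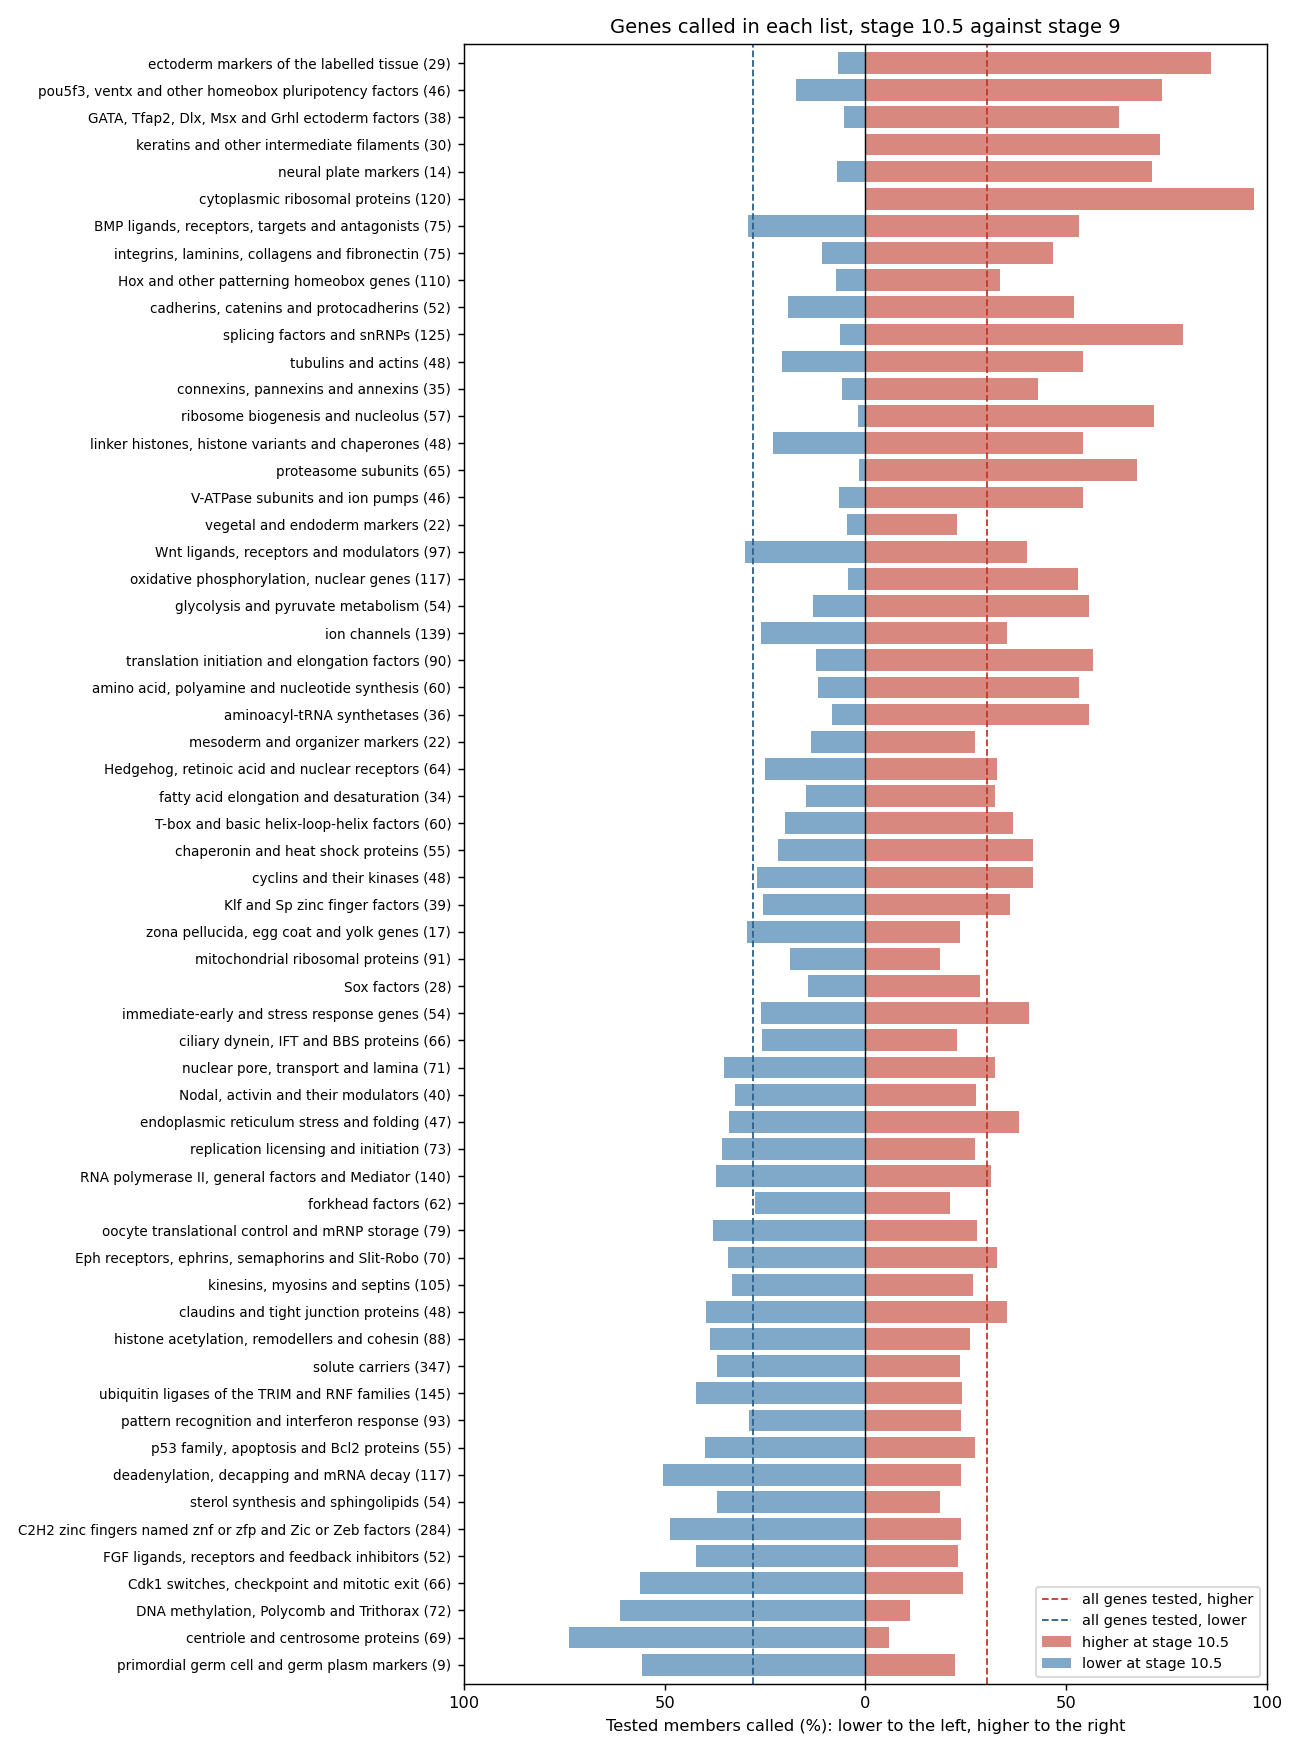
Share of tested members called in each gene list shown, with shares called higher at stage 10.5 to the right in red and lower to the left in blue, ordered by median log2 fold change and with the number tested in brackets. Dashed lines mark 30.3% higher and 28.1% lower among all genes, and cytoplasmic ribosomal proteins (96.7% higher) and centriole genes (73.9% lower) lie far outside them.

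Homeologs were compared by how the log2 L:S ratio of CPM, after adding 1 CPM to both copies, changed between stages, tested by limma with trend. Of 4784 pairs with both copies tested the ratio changed in 2446 (51.1%), 1339 towards L and 1107 towards S, and 1568 pairs were called without stage 10.5 replicate A. Both copies rose in 833 pairs and both fell in 1224, while 1640 pairs had a call in 1 copy and 840 in neither. In 247 pairs the copies were called in opposite directions. The log2 fold changes of L and S had a Pearson r of 0.604 across pairs, given as a description because both come from the same libraries.

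The pair with the largest change in ratio was E-cadherin, with a change of -7.75 ± 0.24 (SE). Its S copy rose as given above, whereas cdh1.L had 4.75 and 7.36 CPM at stage 10.5, against 20.9 and 24.1 CPM at stage 9, so more counts fell to S at stage 10.5 and to L at stage 9. The caprin2 pair was alike, with a change of -5.81 ± 0.21 (SE), as caprin2.L had 58.7 and 59.3 CPM at stage 10.5, against 116 and 90.7 CPM at stage 9 beside the steep rise of caprin2.S. The pced1a pair moved the same way, by -5.99 ± 0.25 (SE), with 21.4 and 12.2 CPM at stage 10.5, against 1.36 and 0.946 CPM at stage 9 for pced1a.S and 1.41 and 1.86 CPM at stage 10.5, against 16.3 and 24.1 CPM at stage 9 for pced1a.L. The other pairs moved towards L. For rgcc, a regulator of the cell cycle, the ratio changed by 5.89 ± 0.20 (SE), with 163 and 95 CPM at stage 10.5, against 13.8 and 11.5 CPM at stage 9 for rgcc.L and 13.7 and 10.6 CPM at stage 10.5, against 79 and 87.2 CPM at stage 9 for rgcc.S. For cyclin G1 it changed by 6.04 ± 0.47 (SE), with 262 and 210.2 CPM at stage 10.5, against 8.53 and 1.85 CPM at stage 9 for ccng1.L and 64.5 and 68.2 CPM at stage 10.5, against 77.5 and 120.4 CPM at stage 9 for ccng1.S. The fall of ccng1.S (log2 fold change -0.57 ± 0.19) was not called without stage 9 replicate B, where it was -0.20, without either stage 10.5 library or with no replicate block. Adjusted p-values of these 5 ratio changes by limma with Benjamini-Hochberg adjustment ran from 1.5e-06 to 3.6e-05.

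The first step was set against the last one, stage 12.5 against stage 11.5, which shares no library with it. The log2 fold change differed between these steps in 10445 of 28490 genes (36.7%) by the quasi-likelihood test of edgeR with adjusted p under 0.05, and in 10074 of the 16642 first-step calls (60.5%). The first-step calls were selected on a change that is itself part of this contrast, so a higher share among them is built in. Without stage 10.5 replicate A the count of differing genes was 6568. The standard deviation of log2 fold changes across genes was 2.26 at the first step and 0.79 at the last. These values include genes at or under the floor, whose fold changes depend on the prior count. The median absolute log2 fold change was 1.12 at the first step and 0.373 at the last. The steps were not scaled to their length in time. At the last step 1306 genes (4.58%) were called in the same fit. Ribosomal protein genes rose there in 47 of 120 cases, with 0 falls and a median of 0.61, and the change differed from the first step in 79. Of 69 centrosome genes 6 fell and 1 rose there, at a median of -0.03. Among ectoderm markers 9 of 29 rose and 0 fell, at a median of 0.78. Both copies of pou5f3.3 fell again, pou5f3.3.L by 2.17 and pou5f3.3.S by 2.22 on the log2 scale. Of the pou5f3 copies that rose at the first step, pou5f3.2.S fell by 0.92 at the last, and 3 were not called there, with log2 fold changes of -0.46 for pou5f3.2.L, 0.45 for pou5f3.1.L and 0.27 for pou5f3.1.S.

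**Figure D4:**
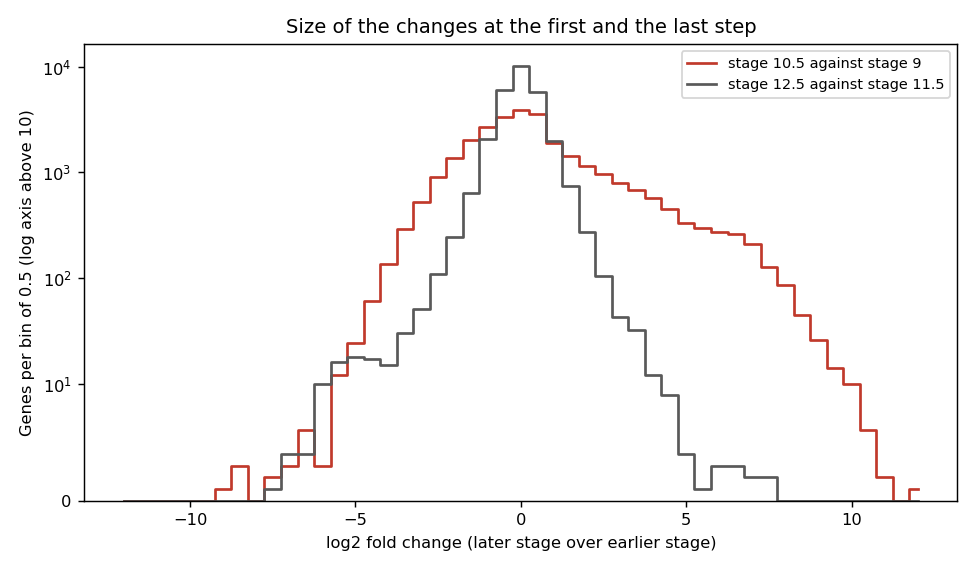
Number of genes in bins of 0.5 of log2 fold change for stage 10.5 against stage 9 (red) and stage 12.5 against stage 11.5 (grey), with a count axis that is logarithmic above 10. The first step is the wider, with a long arm of rises and a standard deviation of 2.26 against 0.79.

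The authors' deposited table for the same stages lists 13583 genes with an adjusted p-value under 0.05, 6655 higher and 6928 lower at stage 10.5. Of these 13439 were called here as well, all with the same sign, which is 98.9% of the calls in the authors' deposited table and 80.8% of the calls made here. Both sets of calls rest on the same libraries, so this agreement is no separate replication.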

How the data were processed

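Total RNA from 8 animal cap libraries, 4 of them at stages 10.5 and 9, had been selected for poly-A tails and sequenced as paired reads of a non-stranded kit, per the labels. The authors deposited raw counts per gene. The submitters' processing notes name FastQC 0.11.5, STAR 2.6.0b-1, featureCounts 1.6.3 and DESeq2 1.22.1, while the genome build, the annotation and the handling of reads shared by near-identical copies are not given in the sources used here. The authors' deposited comparison table gives log2 fold changes and adjusted p-values and was read once, for its calls. Symbols came from the deposited tables, which name 48349 of 51017 gene IDs, and IDs with no symbol held 1.71% of counts.

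All 8 libraries were fitted with edgeR 4.0.16 (R 4.3.3) by stage and replicate letter, with TMM scaling, edgeR's filter on low counts by stage and the quasi-likelihood test with Benjamini-Hochberg adjustment over 28490 genes. The fit had 3 residual degrees of freedom and a common biological coefficient of variation of 0.198. The threshold for a call was an adjusted p of 0.05. Homeolog ratios were tested with limma 3.58.1 on log2 of CPM plus 1. The letters were used as a block because same-lettered libraries deviated together, with correlations of 0.374 to 0.597 over 6 pairs of stages, and the titles give them as experiment letters. Replicates differed beyond sampling noise, with chi-square per degree of freedom of 32.1 to 63.0. The script was tested on simulated data in which few genes changed, none of them at low counts. That test does not cover changes as broad as those found here, or genes at the floor. A floor of 3 counts was 0.0604 to 0.088 CPM, and it covers counting error only.

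The members and gene lists were chosen with earlier results of these data known. Genes were named by rule: the 10 largest rises and falls with at least 20 CPM, up to 2 of each per list with at least 5 CPM, the marked list members, the 5 called genes of highest CPM in each direction and the 5 homeolog pairs with the largest change. A few items that the rule names are not reported here. Counts by symbol stem were chosen after the values were seen. The alternatives were no replicate block, the 4 libraries of both stages alone, other scalings, no filter on low counts, DESeq2 1.42.0 and leaving out each library.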

Additional observations from a re-analysis of the deposited data

How the results depend on the processing

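Of the alternatives, 11440 to 16925 genes were called when single libraries were left out, 5783 to 8596 of them higher and 5657 to 8329 lower, against 16642 in all 8 libraries. The 4 libraries of both stages alone gave 15512 calls, 7623 higher and 7889 lower, so falls outnumbered rises there. The count was 16659 with RLE size factors, 16401 with library size alone, 16729 with no filter on low counts and 17079 with DESeq2. With no replicate block 13757 genes were called, 7114 higher and 6643 lower, 7262 genes differed between the first and the last step and 1734 homeolog ratios changed. Leaving out single libraries gave 6568 to 9865 genes that differed between steps and 1568 to 2455 homeolog pairs, the lowest of each without stage 10.5 replicate A. The median log2 fold change of all genes lay between 0.05 and 0.15 over the settings, and 49.1% to 53.5% of calls were higher.

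Of 311 called named genes, 290 kept their call and direction under all 14 alternatives and 21 lost the call under at least 1, 19 of them without stage 10.5 replicate A and 10 with no replicate block. Most of these genes were named for large called changes, so the share kept is not that of all calls. Of all 16642 calls, 13748 were kept with the same sign with no replicate block, and 14949 with the 4 libraries of both stages alone. Named genes whose direction turned were not called in the first place. Leaving out single libraries moved the log2 fold change of sox3.L between -0.37 and 0.31, sox3.S between -0.09 and 0.04, ticrr.L between -0.22 and 0.29, pabpc1l.L between -0.19 and 0.01, zar1.L between -0.3 and 0.71, and jun.S between -0.59 and 0.98, and the log2 fold change of tp63.S_LOC399036 between -2.38 and 0.1. With the 4 libraries alone sox3.L was at 0.01 and sox3.S at 0.02. For sox3.S both RLE size factors and DESeq2 gave 0.01, and ticrr.L was at 0 with no filter. The cause was not tested. With 2 libraries a stage and 3 counts as the floor, 2255 tested genes at or under the floor in 1 stage have fold changes that depend on the prior count.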
